A study of Rattus norvegicus with 12 samples.

Results

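The retinas of 4 diabetic rats (Diab group) and 4 normal rats (Norm group) were compared at the end of an 8-month experiment. These 8 arrays, taken by the group in their labels, belong to a series of 12. All animals were male Wistar rats. Diabetes was induced with streptozotocin, a toxin of the insulin-producing cells of the pancreas, and the Diab rats stayed in poor glycemic control for the whole 8 months. The Norm rats were of the same age and nondiabetic, and whether they received a sham injection is not given in the sources used here. The 4 remaining arrays are of diabetic rats kept in poor control for 4 months and then in good control, by insulin, for another 4 months (Rev group). They entered the fit for its estimate of the spread and are given beside some values. Each array held the retinal RNA of 1 rat, labeled with Cy3 and hybridized to an array with probes for long noncoding RNAs (LncRNAs) and for messenger RNAs (mRNAs).

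Diabetic retinopathy is a disease of the whole retina: capillaries become leaky and lose their cells, and neurons and glia change as well. LncRNAs are transcripts without a protein product that can act on chromatin, on splicing and on the stability or translation of other RNAs, and many are made in only some cell types. Some are transcribed from ultraconserved elements, stretches of genome kept unaltered between human, mouse and rat. The comparison asks which LncRNAs and mRNAs of the retina differ after long hyperglycemia that was never brought under control.

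Of the probes on the array, 10333 are for LncRNAs and 28287 are for mRNAs. A probe was tested when the image software flagged its spot as well above background, here called detected, on 3 or more of the 12 arrays. That left 9632 LncRNA probes, 27662 mRNA probes and 49 catalogue probes of the array maker. The names of the LncRNA and mRNA probes are not paired with genes in the files, so they are given by probe ID, and a gene symbol was found for 30 of the 50 catalogue probes. None of the cell type markers chosen for the retina has a probe with a gene name (0 genes), so the tissue label could not be checked against photoreceptor, glial or vascular genes. For the same reason the lists for inflammation, antioxidant defence, mitochondria, angiogenesis and cell death come down to 1 gene with a probe, Fgf2.

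The arrays of the groups were not equally bright. Before normalization the median processed signal was 185, 238, 61.3 and 70.9 on Norm arrays 1 to 4 and 306, 379, 408 and 304 on Diab arrays 1 to 4, so all Diab arrays were brighter than all Norm arrays (two-sided exact permutation test, p = 0.0286, the smallest that 4 against 4 allows). Between 86.7% and 93.9% of LncRNA and mRNA probes were detected on a Norm array and 95.6% to 96.9% on a Diab array. Norm replicates 3 and 4 were the dimmest. Each group had been scanned on a slide of its own, so slide and group cannot be told apart. After quantile normalization, the arrays correlated at 0.974 to 0.992 (Pearson, across probes) within Norm, 0.98 to 0.99 within Diab and 0.946 to 0.984 between the groups. All levels below are log2 intensities after quantile normalization, on which a difference of 1 is a 2-fold change within a probe. They do not compare amounts between probes. With whole-retina RNA, fewer cells of a type and less RNA per cell cannot be told apart.

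In the LncRNA class, 509 probes were higher and 354 were lower in the Diab group at a limma p under 0.05 after Benjamini-Hochberg adjustment over all tested probes, 8.96% of those tested in both directions together. Among all tested probes the share called was 7.01%, with 4.01% higher and 2.99% lower. In the mRNA class, 988 probes were higher and 763 were lower, 6.33% of those tested. The median change over all tested probes was near 0, at -0.03 for LncRNA probes and -0.04 for mRNA probes. More probes were called higher than lower in the main fit, and also when the arrays were normalized by 75th percentile scaling or cyclic loess. With the quantile-normalized values this turned in both classes when only the 8 arrays were fitted (672 higher and 864 lower LncRNA probes, 1464 and 2181 mRNA probes). It turned as well when signals were floored near background (362 and 724, 962 and 1156). It also turned with array weights (988 and 1059, 2131 and 2777) and without Rev replicate 3 (1021 and 1287, 2311 and 3443). Without the dim Norm replicates 3 and 4, which leaves 2 Norm arrays, 49 LncRNA probes were higher and 18 were lower, and 57 mRNA probes were higher and 7 were lower. No other pair of arrays was left out for comparison, and leaving out Diab replicate 4 alone left fewer calls (189 and 104 LncRNA, 296 and 102 mRNA) than leaving out either of these alone. The next values are again without Norm replicates 3 and 4 together, for probes called with all arrays and still tested. All 508 higher and 354 lower LncRNA probes and all 986 higher and 762 lower mRNA probes kept their direction. That was mostly fixed beforehand: in 96.7%, 98.9%, 94.2% and 99% of the called probes the groups did not overlap, so their direction could not turn. Of the called probes still tested, 477, 345, 944 and 713 had an unadjusted limma p under 0.05, but they had been chosen with the same arrays. Over all called probes still tested, the median sizes went from 1.016 to 0.853, 0.900 to 0.767, 0.963 to 0.865 and 0.813 to 0.665. With an array brightness term in the fit there were 225 and 68 LncRNA calls and 349 and 117 mRNA calls. Most of these were new: of the calls made without the term, 128 LncRNA (14.8%) and 169 mRNA calls (9.65%) were kept. What part brightness has in the group difference was not tested further.

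Most called changes were of moderate size. The median size was 1.02 on the log2 scale for higher LncRNA probes, 0.90 for lower LncRNA probes, 0.96 for higher mRNA probes and 0.81 for lower mRNA probes. A change of 2-fold or more was computed for 260 higher and 128 lower LncRNA probes and for 462 higher and 151 lower mRNA probes. Changes of 4-fold or more were computed for 84 higher and 2 lower mRNA probes and for 20 higher and 4 lower LncRNA probes. Over all 37343 tested probes the counts were 104 higher and 6 lower. Part of these values lie near background. Among the higher LncRNA probes 109 were not detected on any Norm array, and among the higher mRNA probes 68 were not, so that their fold change was not measured. Of the lower probes, 3 LncRNA and 4 mRNA probes were not detected on any Diab array. Changes of 4-fold or more were not counted apart for probes detected on all 8 arrays, so their split by direction there is not known. Among probes detected on all 8 arrays, 99 higher and 86 lower LncRNA probes and 337 higher and 115 lower mRNA probes were called and changed by at least 2-fold.

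**Figure D1:**
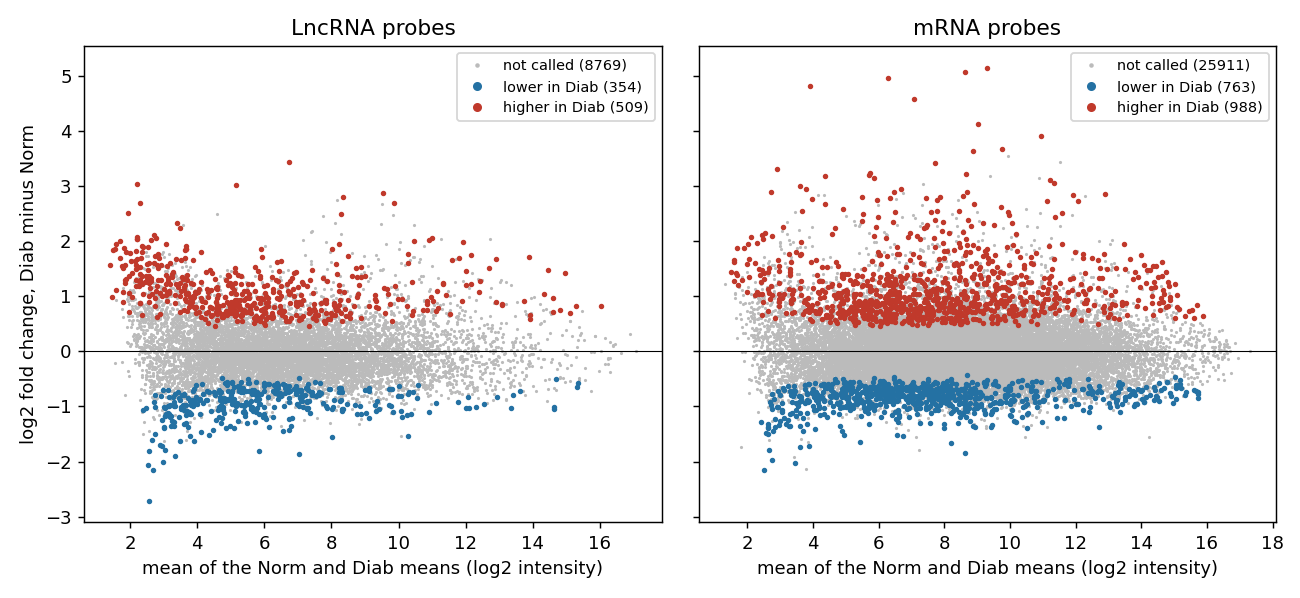
Log2 fold change (Diab minus Norm, vertical axis) against the mean of the group means in log2 intensity (horizontal axis), 1 point per tested probe, with LncRNA probes on the left and mRNA probes on the right. Red points are the 509 LncRNA and 988 mRNA probes called higher in Diab, blue points the 354 and 763 called lower, and gray points were not called, and the largest increases, above 4, are all in the mRNA panel.

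The share of probes called depended on their signal. Of LncRNA probes with a mean log2 intensity under 4, 10.6% were called higher and 5.65% lower. Between 8 and 10 the shares were 3.08% and 1.98%, and from 12 upward they were 6.3% and 3.84%. The mRNA probes had the same shape, with 7.59% higher and 5.81% lower under 4, 2.19% and 1.29% between 10 and 12, and 3.88% and 3.4% from 12 upward. In both classes the fewest calls were thus made at middle to high signal and the most at the dim end. In the dimmest band of LncRNA probes the median SD between rats was 0.51 in Norm and 0.25 in Diab, against 0.23 and 0.20 between 8 and 10, so the Norm rats were spread most where signal was weakest. The LncRNA class has more of its probes at the dim end, with 1487 of 9632 under 4, against 1343 of 27662 mRNA probes. By band, the shares called in either direction were 16.3% of LncRNA and 13.4% of mRNA probes under 4, 10.4% and 9.8% from 4 to 6, 6.7% and 6.75% from 6 to 8, 5.06% and 4.65% from 8 to 10, 6.02% and 3.49% from 10 to 12, and 10.1% and 7.28% from 12 upward. The LncRNA share was thus the larger at both ends of the scale, with closer shares from 4 to 10. The difference between the classes was not tested.

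**Figure D2:**
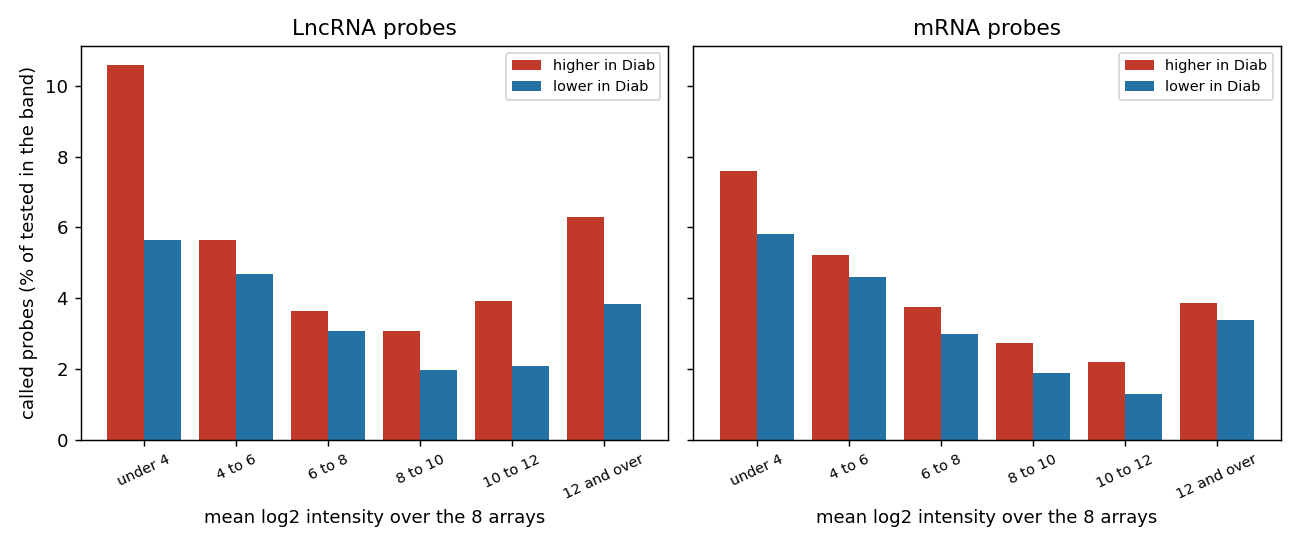
Share of tested probes called in Diab against Norm (percent, vertical axis) by band of mean log2 intensity over the 8 arrays (horizontal axis), for LncRNA probes (left) and mRNA probes (right). Red bars are probes higher in Diab and blue bars probes lower in Diab, and the tallest bar is the 10.6% of dim LncRNA probes called higher.

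The LncRNA probes fall into 3 kinds by name. Of the ASRN6LNC1A probes, 351 of 3567 were called (9.84%), 228 of them higher and 123 lower. Of the ASRNV probes, 442 of 5192 were called (8.51%), 238 higher and 204 lower. Of the probes for ultraconserved elements, named uc, 70 of 873 were called (8.02%), 43 higher and 27 lower. All 3 shares lie near that of the LncRNA class, and the ASRN6LNC1A probes had the most uneven split of directions.

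The probes named below are the 5 with the largest change in each class and direction among called probes that were detected on all 8 arrays and whose groups did not overlap. In the LncRNA class 264 higher and 275 lower probes met these conditions, in the mRNA class 733 and 678. Since the rule asks for groups that do not overlap, that they do not is no result here. Among all tested probes, 9.63% had all Diab values above all Norm values and 14.6% had them all below.

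The largest increases of all were in mRNA probes, and they were uneven among the diabetic rats. Probe ASRN6AP1B101014078V3 read 6.36, 6.38, 7.11 and 7.05 on Norm arrays 1 to 4 and 9.02, 13.74, 13.55 and 11.22 on Diab arrays 1 to 4. The Norm rats lay close together, while Diab rats 2 and 3 stood far above Diab rat 1. The limma log2 fold change was 5.16 (SE 0.87, adjusted p = 0.00856), a 35.7-fold higher mean. Probe ASRN6AP1B106768873V3 followed the same order of rats, with 5.64, 5.73, 6.57 and 6.44 in Norm and 8.10, 13.18, 12.83 and 10.59 in Diab. Its change was 5.08 (SE 0.92, adjusted p = 0.0110 in limma). For ASRN6AP1B100021941V3 the Norm values were 9.13, 8.47, 9.43 and 8.92 and the Diab values 10.51, 14.41, 14.33 and 12.40, a change of 3.92 (SE 0.70, adjusted p = 0.0104). In these 3 probes the call held with any 1 of the 12 arrays left out (highest adjusted p = 0.0336). Without Norm replicates 3 and 4 together the changes were no smaller, at 5.51, 5.49 and 4.11, but not called (adjusted p = 0.0725, 0.0890 and 0.0926). With a brightness term they were 5.87, 5.88 and 4.23, and only the first was called (adjusted p = 0.0437, 0.0503 and 0.0614).

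Both other large increases shared that order of rats. ASRN6AP1B100034015V3 was at 7.75, 7.01, 6.29 and 6.84 in Norm and at 7.88, 13.13, 13.06 and 10.30 in Diab, so Diab rat 1 was barely above the highest Norm rat. ASRN6AP1B100006458V3 was at 8.19, 7.25, 7.83 and 8.35 in Norm and at 8.58, 13.42, 13.12 and 11.19 in Diab, again with Diab rat 1 next to the Norm range. Their log2 fold changes were 4.13 (SE 0.92, adjusted p = 0.0235) and 3.67 (SE 0.83, adjusted p = 0.0250). The call of ASRN6AP1B100034015V3 was lost without any 1 of Norm replicates 3 and 4 and Diab replicates 2, 3 and 4, with an adjusted p of up to 0.0719. That of ASRN6AP1B100006458V3 was lost without the same arrays or Norm replicate 2 (up to 0.0692). The SD among the Diab rats was 1.85 to 2.51 over these 5 probes and 0.41 to 0.60 among the Norm rats. The SE and adjusted p of the fit pool the spread of all 3 groups, so they do not reflect that of the Diab rats alone. An SD over 1 among the Diab rats was found for 49 of the 988 higher mRNA probes and for 1.42% of tested mRNA probes.

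The mean of the Rev group lay between the other means in these 5 mRNA probes, but single rats overlapped. Rev rat 3 was above Diab rat 1 in each of the 5. In ASRN6AP1B100034015V3 and ASRN6AP1B100006458V3 some Rev rats lay within the Norm range. For ASRN6AP1B101014078V3 the Rev values were 7.91, 8.20, 10.22 and 8.09, all below the mean of the Diab rats (11.88), and for ASRN6AP1B100021941V3 they were 9.60, 9.45, 10.94 and 10.39, against a Diab mean of 12.91. The direct contrast of Diab with Rev gave differences of 2.50 to 3.28 for the 5 probes. None passed the adjustment over all probes tested (adjusted p = 0.994 for each), in which 0 probes (0%) were called and 639 (1.71%) had an unadjusted p under 0.05. The unadjusted limma p of these 5 probes ran from 0.001548 to 0.01055, but they were named for their large Diab change.

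The named decreases among mRNA probes were smaller, and in most of them the diabetic rats lay close together. ASRN6AP1B100858644V3 fell from 5.33, 5.50, 6.12 and 5.84 in Norm to 4.26, 3.98, 4.13 and 4.37 in Diab, with less spread in Diab (SD 0.17, n = 4) than in Norm (SD 0.35, n = 4). Its log2 fold change was -1.51 (SE 0.19, adjusted p = 0.00238), and of the 10 named mRNA probes it was the only one called under all 25 alternatives run. Its size was less stable, at -0.57 with normexp, a background correction that adds an offset of 50 to each signal and so shrinks the changes of dim probes. For ASRN6AP1B106884805V3 the values were 6.94, 7.37, 7.62 and 7.41 in Norm and 5.59, 5.97, 6.07 and 5.62 in Diab, a change of -1.53 (SE 0.21, adjusted p = 0.00392). That call held without any 1 array. It ended without Norm replicates 3 and 4 together, where the change was -1.34 (adjusted p = 0.0594), and with a brightness term, where it was -1.13 (adjusted p = 0.0506), and with normexp the change was -0.94.

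The remaining mRNA decreases were less firm. ASRN6AP1B107506806V3 went from 8.56, 8.97, 9.58 and 9.0 to 7.70, 7.23, 7.35 and 7.18, a change of -1.66 (SE 0.36, adjusted p = 0.0205) that was lost without Norm replicate 3 or 4 or Diab replicate 2 or 4 (up to 0.0668). ASRN6AP1B100044060V3 was at 6.10, 6.22, 5.95 and 6.69 in Norm and at 5.41, 4.91, 3.43 and 4.63 in Diab, with Diab rat 3 well below the others. Its change of -1.65 (SE 0.34, adjusted p = 0.0179) was lost without Norm replicate 4 or Diab replicate 4 (up to 0.0581). ASRN6AP1B100030802V3 was at 7.04, 6.90, 8.27 and 7.77 in Norm and at 6.19, 5.71, 6.00 and 5.96 in Diab, the dim Norm arrays 3 and 4 being the highest. Its change of -1.53 (SE 0.41, adjusted p = 0.0450) was lost without any 1 of Norm replicates 3 and 4, Diab replicates 1 to 4 and Rev replicates 1 and 4, and with a brightness term it was -0.18.

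In the LncRNA class the firmest increase was that of ASRNV20031249V3. Its levels were 8.79, 9.55, 7.86 and 7.89 in Norm and 11.18, 11, 10.92 and 11.82 in Diab, a gap of over 1 between the highest Norm rat and the lowest Diab rat. The log2 fold change of 2.71 (SE 0.34, adjusted p = 0.00251), or 6.53-fold, was called under all 25 alternatives. The Rev rats, at 10.67, 10.71, 10.55 and 10.35, were also all above the Norm rats. ASRN6LNC1A100003455V3 was at 9.82, 10.18, 9.65 and 9.90 in Norm and at 12.24, 11.51, 11.26 and 12.61 in Diab, a change of 2.02 (SE 0.28, adjusted p = 0.00392). It lost its call only without Norm replicates 3 and 4 together, where the change was 1.90 (adjusted p = 0.0594).

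ASRN6LNC1A100009056V3 was nearly the same in all Norm rats, at 6.90, 6.89, 7.12 and 7.23, and varied among the Diab rats, at 8.17, 10.58, 9.90 and 9.52. Its change was 2.51 (SE 0.48, adjusted p = 0.0130), and it was about as large but not called without Norm replicates 3 and 4 (2.64, adjusted p = 0.105) and with a brightness term (2.47, adjusted p = 0.0901). The largest named LncRNA increase, that of ASRNV20031891V3, went with array brightness. It read 9.61 and 9.17 on Norm arrays 1 and 2 but 6.73 and 6.89 on the dim Norm arrays 3 and 4, and 10.95, 11.87, 10.45 and 10.65 in Diab. The change was 2.88 (SE 0.71, adjusted p = 0.0332), and 1.59 without Norm replicates 3 and 4 (adjusted p = 0.326). It was also lost without any 1 of Norm replicates 3 and 4 and Diab replicates 1 to 4 (up to 0.0991). ASRN6LNC1A100099411V3 had the same form, with 11.02 and 10.83 on Norm arrays 1 and 2, 8.86 and 9.18 on Norm arrays 3 and 4, and 11.64, 12.95, 11.64 and 11.94 in Diab. Its change of 2.07 (SE 0.57, adjusted p = 0.0488) was 1.11 without Norm replicates 3 and 4 (adjusted p = 0.436), and it was lost without any 1 of those, any Diab replicate or Rev replicate 1 or 4 (up to 0.142).

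The firmest LncRNA decreases were even among the rats. ASRNV20029165V3 was at 8.88, 9.10, 8.66 and 8.58 in Norm and at 7.26, 7.32, 7.30 and 7.10 in Diab, so the 4 diabetic rats lay within an SD of 0.10. Its change was -1.56 (SE 0.14, adjusted p = 0.000546, the smallest found). ASRN6LNC1A100016520V3, a dim probe, was at 4.76, 4.46, 4.76 and 4.95 in Norm and at 3.08, 3.18, 3.15 and 2.99 in Diab, a change of -1.63 (SE 0.15) with the same adjusted p. ASRN6LNC1A100004866V3 was at 8.11, 8.42, 7.60 and 7.69 in Norm and at 5.99, 6.40, 6.14 and 5.82 in Diab, the largest of the named LncRNA decreases at -1.87 (SE 0.28, adjusted p = 0.00530). These 3 decreases were called under all 25 alternatives. The size of the dim one was not stable: it was -0.31 with normexp and -1.06 with scaling to the 75th percentile. With normexp the last was -1.24. In the Rev rats, ASRNV20029165V3 was at 7.41, 7.33, 7.25 and 7.29, and the Diab minus Rev difference was -0.07 (SE 0.14, adjusted p = 0.994).

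ASRNV20031757V3 and ASRNV20027027V3 were the other named LncRNA decreases. The first went from 11.13, 10.72, 11.04 and 11.28 to 9.36, 9.87, 9.70 and 9.07, a change of -1.54 (SE 0.21, adjusted p = 0.00392) that was lost only without Norm replicates 3 and 4 together, where it was -1.43 (adjusted p = 0.0578). The second went from 6.97, 6.84, 7.06 and 6.19 to 5.64, 5.05, 3.73 and 5.37, with Diab rat 3 lowest. Its change of -1.82 (SE 0.45, adjusted p = 0.0346) was lost without any 1 Norm replicate or Diab replicate 2, 3 or 4 (up to 0.0982). Of the 10 named probes of each class, 7 LncRNA and 5 mRNA probes kept their call without each single array. The brightness term ended the calls of 4 LncRNA and 8 mRNA probes, leaving out Norm replicates 3 and 4 together those of 6 and 9, and normexp those of 2 and 1. All 20 kept their direction under these settings. For Norm replicates 3 and 4 left out this was fixed by the naming rule, which asks for groups that do not overlap. The changes that shrank by more than 1.5 times, beside those given above, were those of ASRN6LNC1A100099411V3 and ASRNV20031891V3 with the brightness term (0.24 and 0.48), of ASRN6AP1B107506806V3 with the same term (-0.72), of ASRN6AP1B100030802V3 with normexp (-0.965) and without Norm replicates 3 and 4 (-1.003), and of ASRNV20027027V3 and ASRN6AP1B100044060V3 with normexp (-0.87 and -0.69).

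**Figure D3:**
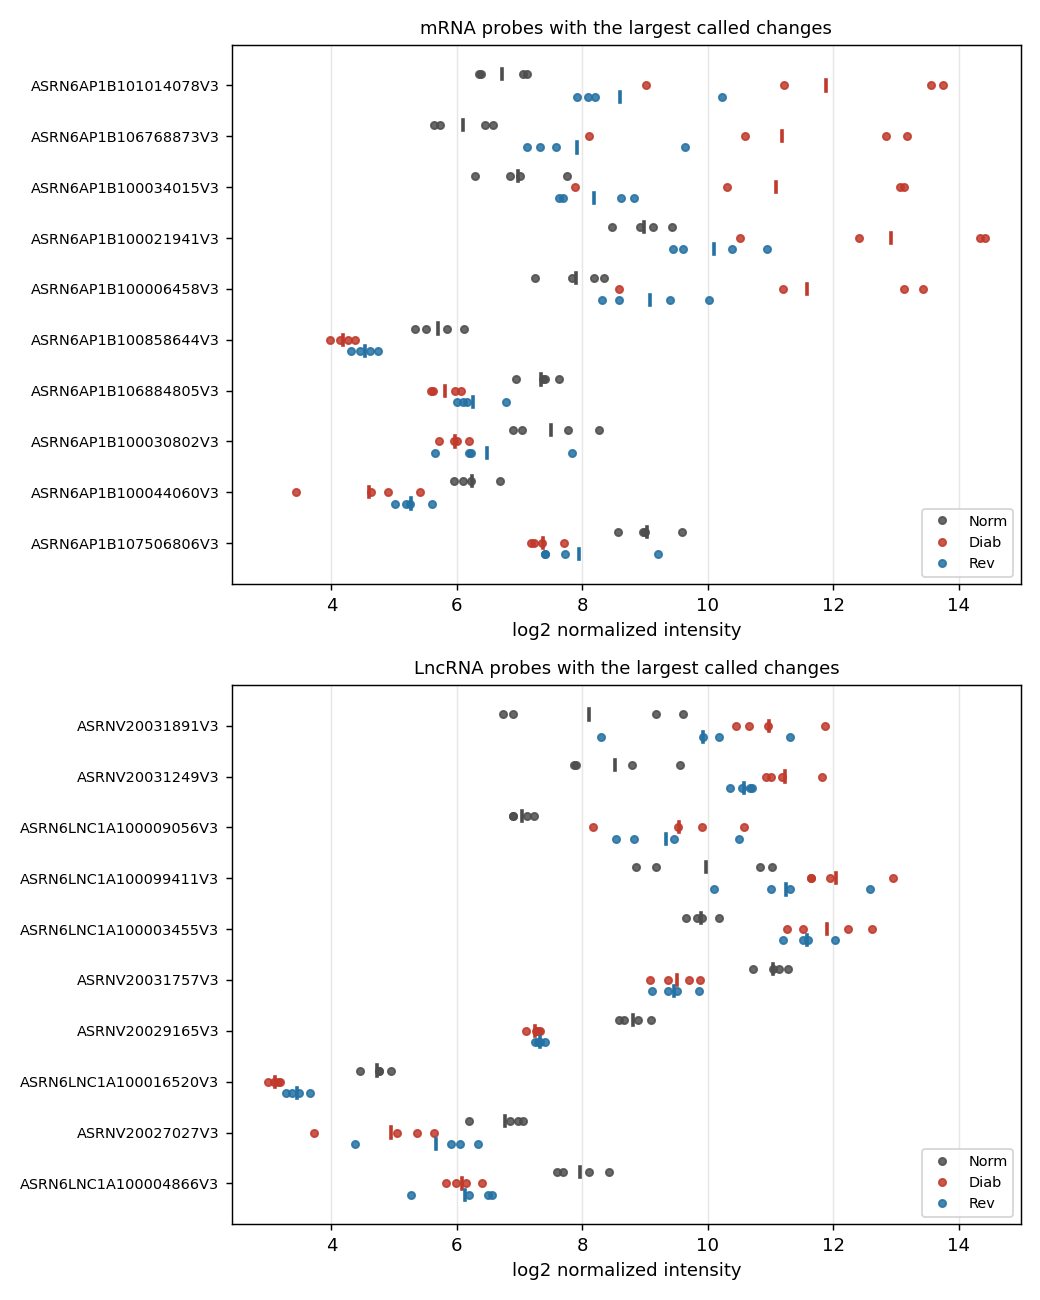
Log2 normalized intensity (horizontal axis) of the 10 named mRNA probes (top) and the 10 named LncRNA probes (bottom) in each rat. Points are single arrays of Norm (gray), Diab (red) and Rev (blue), and the vertical bars are group means. The 5 mRNA increases spread over several log2 units among the Diab rats, while the Diab points of most decreases lie close together.

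The Rev values can be set beside the Diab values for all called probes. Both use the same Norm arrays, so a likeness between them is in part built in. Over the 509 higher LncRNA probes the median change against Norm was 1.02 in Diab and 0.78 in Rev, and over the 354 lower ones -0.90 and -0.64. Over the 988 higher mRNA probes the medians were 0.96 and 0.69, and over the 763 lower ones -0.81 and -0.58. The Rev medians were nearer to 0, but the probes were chosen for their Diab change. Tested directly, 0 of these probes differed between Diab and Rev at an adjusted p under 0.05. At an unadjusted limma p under 0.05 there were 48 and 30 LncRNA probes (higher and lower, 9.43% and 8.47%) and 154 and 44 mRNA probes (15.6% and 5.77%). Of all tested probes, 1.71% reached it. Larger shares are in part built in, since the choice by Diab change uses the same Diab arrays.

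Probes for ultraconserved elements are the only LncRNA probes whose names tell the transcript. The array holds 959 of them for 480 elements, of which 479 have a probe for each strand, marked + and - in the probe name. Which genomic strand the sign stands for is not given in the sources used here. Of 438 tested + probes, 21 were called higher and 17 lower, and of 435 tested - probes, 22 were called higher and 10 lower. Among the higher uc probes, 14 of 43 were not detected on any Norm array.

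By the same rule as above, uc.301- was the firmest of the named increases. It was at 5.27, 5.03, 5.02 and 5.02 in Norm and at 6.34, 6.71, 6.50 and 6.60 in Diab, with little spread in either group. The change was 1.46 (SE 0.17, adjusted p = 0.00183), and it was called under all 25 alternatives, with a change of 0.725 under normexp. The other named increases with the largest changes were of a pair of elements that the study itself lists. The brighter, a + probe, was at 11.92, 11.96, 12.04 and 12.40 in Norm and at 14.48, 12.65, 13.30 and 14.59 in Diab, a change of 1.68 (SE 0.44, adjusted p = 0.0397). It was lost without any 1 Norm replicate, Diab replicate 1, 3 or 4 or Rev replicate 1 or 4 (up to 0.113). The other, a - probe, was at 11.23, 11.09, 10.21 and 10.47 in Norm and at 12.47, 13.19, 12.18 and 11.79 in Diab, a change of 1.66 (SE 0.36, adjusted p = 0.0221) that was lost without Norm replicate 3 or 4 or Diab replicate 2 (up to 0.0709). The increases of uc.400+ (1.25, adjusted p = 0.0221) and uc.234- (1.22, adjusted p = 0.0160) were likewise lost without Norm replicate 4 (the first also without Diab replicate 2 or 4, the second without Norm replicate 3), with adjusted p up to 0.0646 and 0.0537. With normexp these increases were 0.475 and 0.577, both called. With the brightness term the - probe of the pair was at 0.85 and uc.234- at 0.63, neither called (adjusted p = 0.282 and 0.214). The + probe of the pair, at 2.47, and uc.400+, at 1.63, were not called with this term either (adjusted p = 0.0503 and 0.0501). The call of the + probe of the pair was also lost with normexp.

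The named uc decreases were all + probes and smaller. They were uc.120+ (-1.10), uc.343+ (-1.09), uc.463+ (-1.02), uc.352+ (-1.0) and uc.203+ (-0.98), with adjusted p from 0.0235 to 0.0369. The one with the tightest Norm group, uc.203+, was at 9.21, 9.37, 9.14 and 9.02 in Norm and at 8.09, 8.51, 8.40 and 7.83 in Diab. None of these 5 calls held without each single array, with adjusted p up to 0.109. All were lost without Norm replicate 3 or 4 or Diab replicate 1 or 4, all but uc.203+ without Diab replicate 2, and uc.343+, uc.352+ and uc.203+ without Norm replicate 2. Those of uc.120+ and uc.352+ were also lost without Diab replicate 3, and that of uc.120+ without Rev replicate 1 or 4. The processing bore on them too. With the brightness term uc.120+ was at -0.20, uc.463+ at -0.44, uc.352+ at -0.40 and uc.343+ at -1.15, none called, while uc.203+ was at -1.46 and called (adjusted p = 0.0208). Scaling to the 75th percentile ended the calls of uc.120+ (-0.69, adjusted p = 0.134) and uc.343+ (-0.67, adjusted p = 0.0919), as did normexp (-0.55 and -0.47, adjusted p = 0.0534 and 0.0692). Leaving out Norm replicates 3 and 4 together ended 9 of the 10 named uc calls, all but that of uc.301- (1.39, adjusted p = 0.0400). The brightness term ended 8 of the 10.

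The study lists 4 ultraconserved elements among its transcripts, chosen on these arrays, so their direction here is not independent evidence. Beside the pair with the bright probes above, the third listed element was higher on its + probe, at 4.72, 4.84, 4.04 and 3.83 in Norm and at 6.63, 5.13, 5.76 and 5.98 in Diab (log2 fold change 1.52, SE 0.40, adjusted p = 0.0423). It was detected on 2 of the 4 Norm arrays, and the call was lost without Norm replicate 3 or 4 or Diab replicate 1, 3 or 4 (up to 0.119). In the fourth element, the + probe was at 6.26, 5.67, 6.34 and 6.28 in Norm and at 7.32, 9.21, 6.94 and 9.16 in Diab, a difference of 2.02 that did not pass (SE 0.74, adjusted p = 0.106). It was called with scaling to the 75th percentile (2.30, adjusted p = 0.0356), with only the 8 arrays fitted (0.0338), with array weights (2.31, adjusted p = 0.0249) and without Rev replicate 3 (0.0285). On its - probe the difference was 0.77 (SE 0.25, adjusted p = 0.0795), which was called with scaling to the 75th percentile (1.43, adjusted p = 0.00326), with cyclic loess (1.01, adjusted p = 0.0353) and, at the threshold, without Rev replicate 3. The opposite strand of the third element differed by -0.30 (adjusted p = 0.444) and that of the element with the bright - probe by -0.29 (adjusted p = 0.300), and both signs turned with scaling to the 75th percentile. The opposite strand of the element with the bright + probe did not pass the detection rule and was not tested.

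Few elements were called on both strands. Of 403 elements tested on both strands, 57 were called on 1 strand and 4 on both. Since only 8.02% of tested uc probes were called (7.01% of all tested probes), these counts do not tell whether strands move together. Some of these probes are dim, with 612 of the 873 tested uc probes detected on all 8 arrays. Over these elements the changes of the strands correlated at r = -0.019, a description over probes that share the same arrays. In 3 of the 4 elements called on both strands, the strands moved in opposite directions. The uc.164+ probe rose from 6.76, 6.37, 5.95 and 5.82 to 7.5, 7.18, 7.22 and 7.29 (1.07, adjusted p = 0.0256), while uc.164- fell from 4.31, 4.30, 4.25 and 4.70 to 3.40, 3.07, 3.65 and 3.45 (-0.99, adjusted p = 0.0149). The uc.164- probe was near background in Norm and detected on 3 of the 4 Norm arrays. In uc.352, the - probe rose from 5.65, 5.70, 5.53 and 5.82 to 6.63, 6.74, 6.46 and 6.48 (0.90, adjusted p = 0.00552) while the + probe fell. In uc.353, the + probe rose by 0.68 (adjusted p = 0.0382) and the - probe fell by 1.81 (adjusted p = 0.0113), but the latter was detected on only 2 Norm arrays and 1 Diab array. The element uc.234 was called higher on both strands, but its + probe was not detected on any Norm array and on only 2 Diab arrays. The fold change of that strand was thus not measured.

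**Figure D4:**
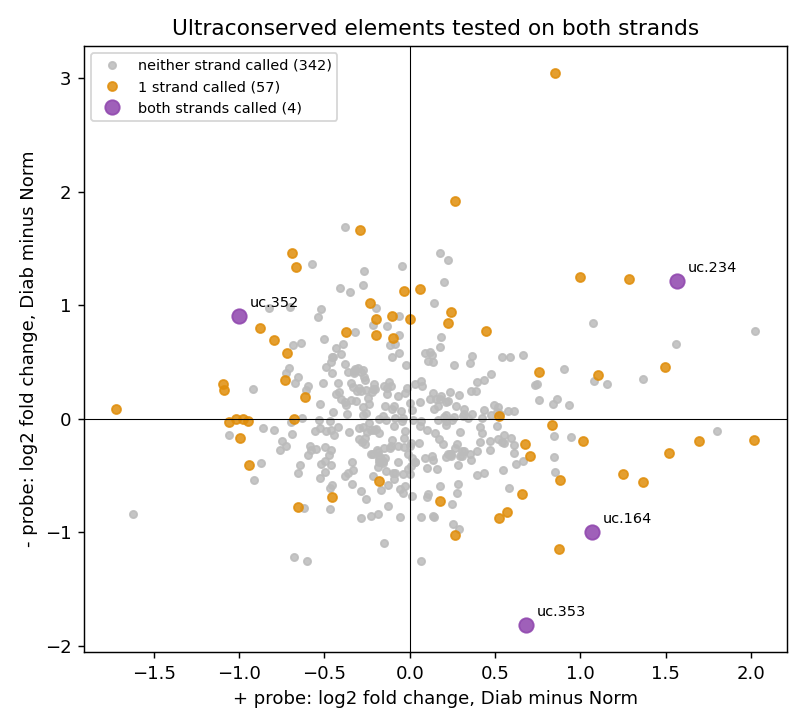
Log2 fold change (Diab minus Norm) of the + probe (horizontal axis) and the - probe (vertical axis) of the 403 ultraconserved elements tested on both strands, 1 point per element. Gray points have no strand called, orange points 1 strand (57 elements) and purple points both (4 elements), of which uc.164, uc.352 and uc.353 lie in the quadrants of opposite signs.

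The catalogue probes, with 10 spots each, are the only ones tied to gene symbols, and 29 with a symbol were tested. The median SD between the spots of a probe was 0.04 to 0.11 within an array. Of these genes, 1 was called: P2rx2, which codes for a subunit of the ATP-gated P2X ion channels. It was lower in Diab, with 6.65, 6.46, 6.84 and 7.18 in Norm and 6.42, 6.07, 5.51 and 5.83 in Diab, so the groups met closely without overlap. The change was -0.82 (SE 0.22, adjusted p = 0.0414), and the call was lost without any 1 of 9 arrays: Norm replicates 1, 3 and 4, Diab replicates 2 to 4 and Rev replicates 1, 2 and 4 (up to 0.118). It was also lost with adjustment within each class (adjusted p = 0.0570), scaling to the 75th percentile (-0.48, adjusted p = 0.143), normexp (-0.47, adjusted p = 0.0507), the brightness term (-0.64, adjusted p = 0.258) and without Norm replicates 3 and 4 (-0.60, adjusted p = 0.336), so that it was called in 11 of 25 alternatives. A further catalogue probe, A_44_P913360, which has no symbol in the tables used and was picked out after its values were seen, was higher, at 9.48, 9.29, 9.32 and 9.15 in Norm and at 10.19, 10.11, 10.30 and 10.31 in Diab (0.92, SE 0.17, adjusted p = 0.0122). Over the 29 genes the median change was 0.06, and 7 had an unadjusted p under 0.05 (27.2% of all tested probes did).

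The other catalogue genes did not pass the adjustment over all probes. Those nearest to it, looked up after their values were seen, were Napepld, whose enzyme makes N-acylethanolamine lipids, at -0.68 (adjusted p = 0.0518), and Eif4b, a translation initiation factor, at 0.57 (adjusted p = 0.0582). Map2, a microtubule protein of dendrites, differed by 0.66 (adjusted p = 0.102). Nlrp3, the sensor of an inflammasome, differed by 0.37 (adjusted p = 0.160) and was detected on 2 of 4 Norm arrays. Fgf2, a growth factor for vessels and photoreceptors, was at 9.52, 9.28, 9.38 and 9.89 in Norm and at 8.93, 9.05, 11.82 and 10.44 in Diab. Its difference of 0.54 (SE 0.53, adjusted p = 0.526) lay within the spread of the Diab rats, rested on Diab rat 3, and was -0.04 without it. Ldha, the lactate dehydrogenase of glycolysis, differed by 0.01 (SE 0.21), and Dlg4, a scaffold of synapses, by -0.01 (SE 0.21).

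**Figure D5:**
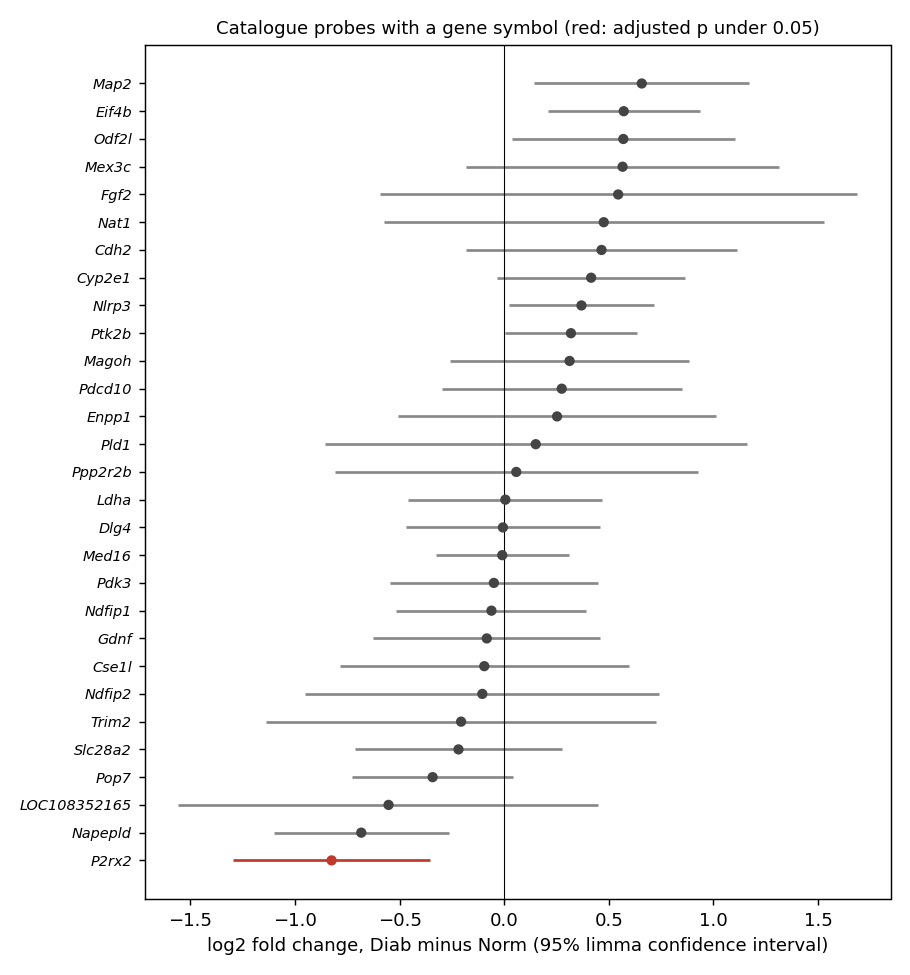
Log2 fold change (Diab minus Norm, horizontal axis) of the 29 tested catalogue probes with a gene symbol, 1 row per gene, with lines for the 95% limma confidence interval. The red point is P2rx2, the 1 gene with an adjusted p under 0.05, and most other intervals include 0.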

How the data were processed

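Retinal RNA was measured on 1-colour arrays, 1 rat per array. The authors read the scans with Agilent Feature Extraction (11.0.1.1), and the deposited processed signal is an intensity with background removed within the array and no normalization between arrays. The authors' later quantile-normalized values were not used here.

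Here log2 processed signals of noncontrol probes were quantile normalized over the 12 arrays (38804 probes), without the 2055 spots flagged as nonuniform or population outliers, with repeated spots averaged by probe. Tested probes were detected (flagged well above background) on 3 or more arrays and had 2 or more unflagged arrays in each group. A single limma model (limma 3.58.1, R 4.3.3) took in all 3 groups and left 9 residual degrees of freedom. Benjamini-Hochberg adjustment ran over all 37343 tested probes, and calls have an adjusted p under 0.05. SE and limma p-values rest on a single spread per probe, pooled over the 3 groups of 4 rats and drawn toward that of other probes. Where the groups differ in spread, it is not the spread of the groups compared. Exact tests use the 4 Norm and 4 Diab rats, and the number of rats limits the precision. The script was tested on simulated data, and figures were drawn with matplotlib (3.10.9).

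The probes, lists and naming rule were chosen with earlier results of these data known. The rule took, in each class and direction, the 5 called probes of largest change that were detected on all 8 arrays and whose groups did not overlap, the same for uc probes, both strands of 4 listed ultraconserved elements, and catalogue genes that were called or on a gene list. The listed elements are uc.247 (bright + probe, Norm mean 12.08), uc.298 (bright - probe, Norm mean 10.75), uc.224 (the third) and uc.243 (the fourth). Replicate numbers equal the position on the slide on 12 of 12 arrays. Catalogue symbols come from RefSeq accessions. Alternatives were adjustment within each class, 75th percentile scaling, cyclic loess, normexp (offset 50, on median signals, since the files hold no mean signal), no filter or detection on all 8 arrays, a floor near background, only 8 arrays, trend and robust moderation, array weights, a replicate block, a brightness covariate, Norm replicates 3 and 4 left out, and each array left out.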

Additional observations from a re-analysis of the deposited data

Results flagged for a closer look

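Among the named probes, 74 groups of 4 rats were examined for a rat far from the rest, and in 3 the gap to the nearest rat took up nearly the whole range of the group. Chance gives about 1 such group in 20. For uc.301-, Norm rat 1, at 5.27, stood apart with a gap of 0.97 of the range, in a group that spans little. On the + probe of the fourth listed ultraconserved element, Norm rat 2 was low at 5.67 (0.877 of the range), and on the + probe of the listed element with the bright - probe, Norm rat 2 was low at 5.32 (0.831 of the range).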

How the results depend on the processing

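Counts of calls are given as LncRNA higher, LncRNA lower, mRNA higher and mRNA lower, against 509, 354, 988 and 763. They were 2155, 185, 3760 and 889 with 75th percentile scaling, which moved the median change to 0.28 (LncRNA) and 0.10 (mRNA) from -0.03 and -0.04, and 764, 364, 1426 and 735 with cyclic loess. Normexp gave 260, 189, 693 and 556, the floor 362, 724, 962 and 1156, and probes detected on all 8 arrays 254, 260, 730 and 617. Fitting only 8 arrays gave 672, 864, 1464 and 2181, array weights 988, 1059, 2131 and 2777, the brightness covariate 225, 68, 349 and 117, and leaving out Norm replicates 3 and 4 together 49, 18, 57 and 7. Adjustment within each class, no filter, and trend and robust moderation kept each count within 1.5-fold. The share of calls that were higher, 59% for LncRNA and 56.4% for mRNA, was 92.1% and 80.9% with 75th percentile scaling, 33.3% and 45.4% with the floor, 43.8% and 40.2% with only 8 arrays, 48.3% and 43.4% with array weights, and 76.8% and 74.9% with the brightness covariate. The cause of these shifts was not tested.

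With the replicate block the counts were 758, 675, 1508 and 1553. Same-numbered Norm and Diab arrays correlated at -0.14, 0.275, -0.067 and 0.196 in their deviations from group means, and over all 3 pairs of groups the correlations ran from -0.278 to 0.638 (Norm with Rev 0.108, 0.313, 0.525 and -0.144, Diab with Rev 0.193, 0.638, -0.084 and -0.278). Not every one is above 0.1, no label ties the numbers to shared animals or days, and the numbers equal the slide position, so the block was kept as an alternative. Whether position adds to the likeness of some arrays was not tested.

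Leaving out 1 array at a time, the counts ranged from 189 to 1021 (LncRNA higher), 104 to 1287 (LncRNA lower), 296 to 2311 (mRNA higher) and 102 to 3443 (mRNA lower), lowest without Diab replicate 4 and highest without Rev replicate 3, whose residual SD of 0.633 was the largest of any array. Norm replicate 3 left 208, 113, 339 and 121 when removed, Norm replicate 4 left 218, 117, 339 and 132, Diab replicate 2 left 217, 122, 378 and 171, and Diab replicate 3 left 268, 193, 495 and 276. Without Diab replicate 1 there were 299, 195 and 370 (not mRNA higher), and lower mRNA calls were 493 without Norm replicate 2 and 449 without Rev replicate 4.

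Among the named probes, 3 differences that had not been called changed sign. The - probe of the third listed ultraconserved element was 0.049 with 75th percentile scaling and 0.365 with the brightness covariate, and the + probe of the listed element with the bright - probe was 0.162 and 0.076. Without single arrays Fgf2 ranged from -0.042 (without Diab replicate 3) to 0.922 (without Diab replicate 1). Signal over background is weakest on Norm arrays 3 and 4 and limits their dim probes most.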
